A study of Mus musculus with 21 samples.

Results

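The genes described here are 10 genes tied to the trophectoderm, the outer epithelium of the blastocyst: the transcription factor genes Cdx2, Gata3, Gata2 and Eomes, the keratin genes Krt8, Krt18 and Krt7, the gene of the helix-loop-helix inhibitor Id2, and Dppa1 and Tspan8. They were chosen by name, with earlier results of these data known. Transcripts of the merged long-read annotation were assigned to them by exonic overlap on the same strand with GENCODE vM21 (mm10), and the level of a gene is the sum of the TPM (a share of all transcripts, corrected for length and scaled to the same total in every library) of its transcripts. Of the 10 genes, 8 had merged transcripts, 17 in all, out of 10914 genes and 22612 merged transcripts. Gata2 and Eomes had no merged transcript and no long-read transcript in any stage, so they have no value here, which is not a level of 0. In mm10 coordinates of the annotated genes, Cdx2 lies on chromosome 5 at 147300805 to 147307270, Gata3 on chromosome 2 at 9857078 to 9890034, Id2 on chromosome 12 at 25093799 to 25097140, Dppa1 on chromosome 11 at 46607772 to 46629261 and Tspan8 on chromosome 10 at 115816832 to 115849893. The keratin genes lie on chromosome 15, Krt7 at 101411043 to 101430313, Krt8 at 101996698 to 102004482 and Krt18 at 102028180 to 102032027.

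The libraries were sperm from the epididymis of DBA/2J males (named DBA/2N in the protocol), oocytes of C57BL/6J females, and embryos of the cross of both, at the 1-cell, 2-cell, 4-cell, 8-cell and blastocyst stage. The females were 3 to 5 weeks old and had received 7.5 IU PMSG and, 48 h later, 7.5 IU hCG. Oocytes and embryos were taken at 20 h after hCG. Embryos were cultured in KSOM and collected at 24 to 26 h (1-cell), 46 to 48 h (2-cell), 54 to 58 h (4-cell), 68 to 70 h (8-cell) and 94 to 96 h (blastocyst). Each stage has 2 short-read libraries, each from pooled cells, and 1 long-read pool, so the spread between the 2 libraries is the only replicate error, and whole blastocysts were lysed, so trophectoderm and inner cell mass were not apart.

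In the mouse the trophectoderm is the first epithelium to form. Outer cells of the morula become polarized, and the Hippo pathway partner TEAD4, with GATA3 and AP-2 gamma (Tfap2c), acts on Cdx2, which represses the genes of the inner cell mass. KRT8 and KRT18 pair into the intermediate filaments of simple epithelia, with KRT7 as a further type II partner, and ID2 holds back E proteins by binding them without binding DNA. TSPAN8 is a tetraspanin, a membrane protein that gathers other proteins at the cell surface, and Dppa1 is named for developmental pluripotency.

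All 10 genes had a promoter in RefSeq (GRCm38.p6), taken here as the 250 bases before the start. Those of Cdx2, Gata3 and Dppa1 are shown because these genes mark the ends of the range of changes from the 8-cell stage to the blastocyst and the key regulator between them. They lie on the minus strand at chr5:147307250-147307499 (Cdx2), chr2:9878601-9878850 (Gata3) and chr11:46629275-46629524 (Dppa1). Capitals mark matches, on either strand, to the GATA words (GATAA or GATAG after an A or a T), the TEAD word GGAATG or the AP-2 word GCCNNNGGC, in which N is any base.
Cdx2 promoter: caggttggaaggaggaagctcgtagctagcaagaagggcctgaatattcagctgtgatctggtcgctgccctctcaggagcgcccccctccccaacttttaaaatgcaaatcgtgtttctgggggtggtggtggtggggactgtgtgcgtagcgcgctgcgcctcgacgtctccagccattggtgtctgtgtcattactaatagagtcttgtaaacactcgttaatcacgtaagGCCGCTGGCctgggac
Gata3 promoter: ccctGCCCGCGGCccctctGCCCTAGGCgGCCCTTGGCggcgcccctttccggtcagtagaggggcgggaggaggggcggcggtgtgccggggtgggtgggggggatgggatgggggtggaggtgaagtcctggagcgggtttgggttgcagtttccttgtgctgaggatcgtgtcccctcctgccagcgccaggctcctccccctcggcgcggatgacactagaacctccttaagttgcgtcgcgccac
Dppa1 promoter: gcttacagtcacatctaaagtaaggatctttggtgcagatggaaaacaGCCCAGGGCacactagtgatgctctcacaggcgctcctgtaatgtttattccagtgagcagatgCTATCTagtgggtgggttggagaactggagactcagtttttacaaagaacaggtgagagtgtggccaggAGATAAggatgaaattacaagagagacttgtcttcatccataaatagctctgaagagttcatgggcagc
The AP-2 word occurred once each in the promoters of Cdx2, Krt18 and Dppa1 and in the second of the Gata2 promoters, 2 times in Krt7 and 3 times in Gata3, and it was in 13.7% of all 32851 promoters. The GATA words occurred 2 times each in Dppa1 and Tspan8 and once in Krt8, against 26.5% of all promoters with at least one. The TEAD word, in 12.6% of promoters, was in none of the 8 promoters of quantified genes, and in the same Gata2 promoter. The promoters of Dppa1, Cdx2 and Gata3 had 45.6%, 55.2% and 70.0% G and C. Id2 and Eomes held none of these words. A match is a description of letters and not a binding site.

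The 14 libraries held 6971 to 9820 genes at 1 TPM or more. The correlation between the 2 libraries of a stage, over transcripts on the log2(TPM + 1) scale, was 0.721 (2-cell) to 0.964 (4-cell), and 0.871 for the blastocyst and 0.947 for the 8-cell stage. The 2-cell libraries stood apart most, with oocyte markers at a summed 122 TPM in replicate 1 and 1438 TPM in replicate 2. Because TPM keeps no read depth, no counting interval is given. Only 1 of 13 cumulus and granulosa markers had a merged transcript, at 0.0352 and 0.146 TPM in the oocyte libraries. In the blastocyst libraries the 10 measured inner cell mass markers all reached 1 TPM.

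The transcription factor genes came on in different ways. Cdx2, whose product specifies the trophectoderm, was at 0 to 0.459 TPM in the 8 libraries from oocyte to 4-cell. It reached 1.96 and 4.89 TPM at the 8-cell stage and 46.7 and 120 TPM in the blastocyst libraries (mean 83.1 ± 51.6 SD, n = 2). The blastocyst libraries lay above all others, and the 8-cell libraries overlapped only with sperm, at 0.0762 and 3.13 TPM. Cdx2 was the lowest of the 3 measured regulators in the blastocyst.

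Gata3 had a different course, high in the oocyte, low in cleavage and high again. It was at 29.9 and 199 TPM in the oocyte, 40.9 and 11.6 TPM in the 1-cell embryo, 1.51 and 11.8 TPM in the 2-cell embryo and 3.53 and 2.82 TPM in the 4-cell embryo. It then stood at 73.2 and 223 TPM in the 8-cell embryo and 784 and 1928 TPM in the blastocyst (mean 1356 ± 808 SD, n = 2). The blastocyst libraries lay above all others, but the 8-cell and oocyte libraries overlapped. Of the 8 genes it alone had both oocyte libraries above both 4-cell libraries.

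Id2, low in the oocyte, had its first higher values in the 2-cell embryo. Its libraries were at 0.625 and 0.883 TPM in the oocyte, 3.70 and 2.32 TPM in the 1-cell embryo, and 7.66 and 74.0 TPM in the 2-cell embryo. They were at 4.60 and 4.95 TPM in the 4-cell embryo, 17.8 and 13.7 TPM in the 8-cell embryo and 715 and 187 TPM in the blastocyst (mean 451 ± 374 SD, n = 2). The high 2-cell value came from replicate 2 alone, the library with the high oocyte markers, and the part of that library in the value was not tested.

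Krt8 and Krt18 were among the most abundant transcripts of the blastocyst. Krt18 was at 1.09 and 0.769 TPM in the oocyte, 2.61 and 2.27 TPM in the 1-cell, 2.21 and 41.2 TPM in the 2-cell, and 18.4 and 6.09 TPM in the 4-cell embryo. It reached 122 and 244 TPM in the 8-cell embryo and 5733 and 20177 TPM in the blastocyst (mean 12955 ± 10214 SD, n = 2). Krt8 was at 1.52 and 1.25 TPM in the oocyte, 4.13 and 10.3 TPM in the 1-cell, 2.69 and 10.97 TPM in the 2-cell and 13.5 and 4.13 TPM in the 4-cell embryo. It reached 75.3 and 208 TPM in the 8-cell embryo and 3504 and 15040 TPM in the blastocyst (mean 9272 ± 8158 SD, n = 2). For both genes the 8-cell libraries lay above all earlier embryo libraries and the blastocyst libraries above those. Among 10914 genes, Krt18 ranked 13 and 3 and Krt8 ranked 30 and 4 by TPM in blastocyst replicates 1 and 2. Together they held 0.924% and 3.52% of all TPM there, against 0.0197% and 0.0452% in the 8-cell libraries.

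From the 4-cell stage on Krt8 stayed below Krt18. The ratio of Krt8 to Krt18 TPM was 0.734 and 0.678 in 4-cell embryos, 0.618 and 0.852 in 8-cell embryos and 0.611 and 0.745 in blastocysts, so these stages overlapped. At lower levels, from oocyte to 2-cell, it ran from 0.266 (2-cell replicate 2) to 4.54 (1-cell replicate 2), and it was 0.482 and 0.939 in sperm. The genes lie on opposite strands of chromosome 15, with 23697 bases between their annotated starts. Krt7 stayed far lower. It was at 0.0373 to 1.56 TPM from oocyte to 4-cell, 1.21 and 2.48 TPM at the 8-cell stage and 24.9 and 119 TPM in the blastocyst libraries (mean 72.0 ± 66.6 SD, n = 2), so that its TPM was 0.00711 and 0.00792 of that of Krt8 in the blastocyst. The merged Krt7 transcript is the full-length form, read in the sperm pool. The blastocyst pool held only a 402-base form of 3 exons from its 3' part, and over the long-read transcripts of the blastocyst alone Krt7 was at 68.4 and 325 TPM. The level of Krt7 in the blastocyst thus moved by more than 1.5 times with the set of transcripts, but its order between libraries did not.

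Dppa1 and Tspan8 had low levels in embryos before the blastocyst. Dppa1 was at 0.391 to 3.98 TPM in the 10 libraries from oocyte to 8-cell, highest in the 1-cell embryo (3.98 and 2.75 TPM), and at 503 and 113 TPM in the blastocyst (mean 308 ± 276 SD, n = 2). Tspan8 was at 0 to 11.3 TPM in those 10 libraries and at 363 and 78.9 TPM in the blastocyst (mean 221 ± 201 SD, n = 2). Its highest earlier value was again in 2-cell replicate 2, and the 4-cell (4.60 and 4.71 TPM) and 8-cell libraries (5.27 and 3.80 TPM) overlapped. For both genes, blastocyst libraries lay above every other library.

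**Figure D1:**
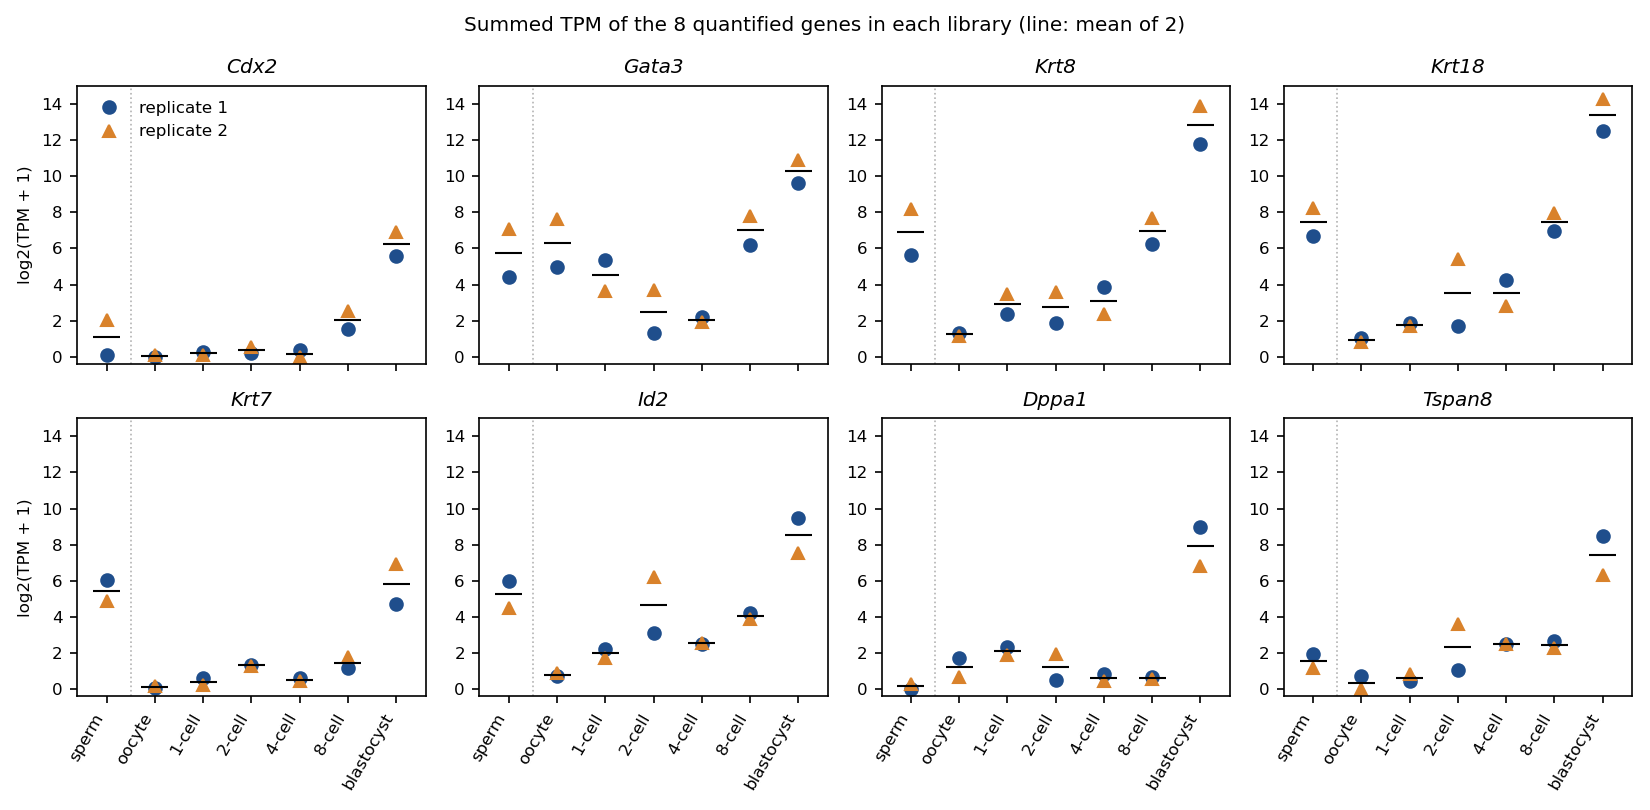
Each panel plots log2(TPM + 1) of a gene by stage, with circles for replicate 1, triangles for replicate 2 and a line for the mean of both; the dotted line parts sperm from the embryo series. All 8 genes have their highest embryo libraries in the blastocyst, replicate 2 lies above replicate 1 there for Cdx2, Gata3, Krt8, Krt18 and Krt7, and below it for Id2, Dppa1 and Tspan8.

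Stage differences were tested with limma on log2(TPM + 1) over all 12 libraries from oocyte to blastocyst and 9997 genes with 1 TPM or more in at least 2 of them. All 8 quantified genes passed that filter, and each of them would have passed it without the blastocyst libraries, with 2 (Cdx2) to 10 (Gata3 and Krt8) of the 10 other libraries at 1 TPM or more. Adjusted p values are Benjamini-Hochberg values over all genes of a step, and a gene is called at an adjusted p under 0.05. From the 8-cell stage to the blastocyst 7 of the 8 genes were called higher and none lower, against 1.51% of all genes called higher.

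The largest change was that of Dppa1, 7.29 on the log2 scale (SE 0.77, adjusted p = 0.000381), which ranked 3 of 9997 genes. The keratin genes rose by 5.95 (Krt18, SE 1.04, adjusted p = 0.0072), 5.84 (Krt8, SE 0.91, adjusted p = 0.00374) and 4.33 (Krt7, SE 0.66, adjusted p = 0.00327). Tspan8 rose by 4.96 (SE 0.87, adjusted p = 0.0072), Id2 by 4.46 (SE 0.93, adjusted p = 0.0165) and Cdx2 by 4.18 (SE 0.58, adjusted p = 0.00191). Gata3 differed by 3.25 (SE 1.04), with both blastocyst libraries above both 8-cell libraries, but its adjusted p of 0.122 did not pass. Over 24 alternative settings its change was 2.46 to 4.05, and in 21 of them it was again not called. The 3 that called it were the fits without 2-cell replicate 1 or replicate 2 and the correction for base composition given below. The ratio of mean TPM, blastocyst over 8-cell, was 571 for Dppa1, 70.7 for Krt18, 65.4 for Krt8, 48.8 for Tspan8, 38.9 for Krt7, 28.6 for Id2, 24.3 for Cdx2 and 9.14 for Gata3. The ratios of Dppa1, Krt7, Cdx2 and Tspan8 divide by low 8-cell means (0.540, 1.85, 3.43 and 4.53 TPM). Their size and order are therefore uncertain. The median change was 4.71 over the 8 genes and -0.14 over all genes tested.

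These calls rest on the spread that all 12 libraries share. In a fit of the 4 libraries of the step alone, none of the 8 genes and none of the 9997 was called by limma, with 1665 genes at an unadjusted p under 0.05 and adjusted p values of 0.131 (Dppa1) to 0.19 (Gata3) for the 8 genes. Without 8-cell replicate 1 only Dppa1 was called, without 8-cell replicate 2 or blastocyst replicate 1 there were 5 calls, and without blastocyst replicate 2 there were 6. Without the filter on low values Id2 was not called (adjusted p = 0.0585).

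From the 4-cell to the 8-cell stage the earlier risers stood out. Gata3 rose by 4.95 (SE 1.04, adjusted p = 0.0289) and Krt8 by 3.87 (SE 0.91, adjusted p = 0.048), 2 of the 8 genes against 0.77% of all genes called higher. Krt18 differed by 3.89 (SE 1.04, adjusted p = 0.0805) and Cdx2 by 1.88 (SE 0.58, adjusted p = 0.125), and for both the 8-cell libraries lay above the 4-cell libraries. Krt7 (0.95, SE 0.66) and Id2 (1.53, SE 0.93) did not pass, nor did Dppa1 (-0.02, SE 0.77) and Tspan8 (-0.04, SE 0.87). Neither Gata3 nor Krt8 was called without any one of the 1-cell, 4-cell or 8-cell libraries, with adjusted p values of 0.0569 to 0.406 for Gata3 and 0.0795 to 0.545 for Krt8. Without an oocyte library Krt8 was lost (adjusted p = 0.0771 without replicate 1, 0.0766 without replicate 2), and without a 2-cell library 4 genes were called. Krt8 was also lost with a replicate block (adjusted p = 0.0612), over all 14 libraries (0.0621) and without the filter (0.0939), and Gata3 without the filter (0.0806). Of all called genes 46.1% were higher in this step, and 69.5% with quantile normalization, under which Gata3 and Krt8 were called too.

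In the earlier steps little passed. From 1-cell to 2-cell only Id2 was called, with a rise of 2.69 (SE 0.93, adjusted p = 0.0387), where 26.1% of all genes were called higher. With quantile normalization the share of called genes that were higher in this step fell from 80.8% to 47.5%, Id2 was not called (1.90, adjusted p = 0.108), and Gata3 and Dppa1 were called lower. Without 2-cell replicate 2 the difference was 1.13 (adjusted p = 0.291). The call was also lost without any one of the oocyte, 1-cell, 4-cell or 8-cell libraries (adjusted p = 0.0521 to 0.177). No member was called by limma from oocyte to 1-cell, where 0.38% of all genes were called in either direction, or from 2-cell to 4-cell, where 3.24% were. At an unadjusted p under 0.05 the counts were 0 and 1 of the 8 genes, where 9.2% and 24.5% of all genes had such a p (Id2 from 2-cell to 4-cell, -2.14, adjusted p = 0.174 in limma). From oocyte to blastocyst all 8 genes were called higher, where 35.4% of all genes were, with changes of 3.97 (Gata3, SE 1.04, adjusted p = 0.00529) to 12.45 (Krt18, SE 1.04, adjusted p = 2.84e-06). Quantile normalization moved the share of called genes that were higher there from 66.3% to 50.2%, with all 8 genes still called higher. Gata3 missed the threshold there without oocyte replicate 1 (adjusted p = 0.0832) or blastocyst replicate 2 (adjusted p = 0.0586).

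**Figure D2:**
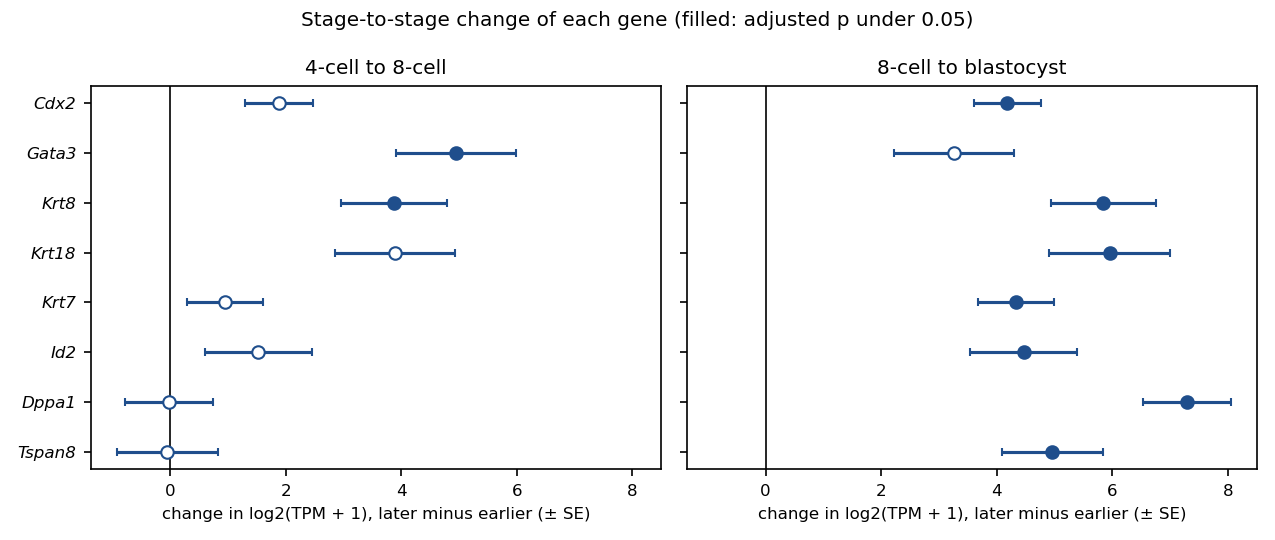
Points give the change of each gene in log2(TPM + 1), later stage minus earlier stage, with bars of 1 SE from the limma fit over 12 libraries; filled points have an adjusted p under 0.05. Gata3 and Krt8 are filled in the 4-cell to 8-cell panel, and all but Gata3 in the 8-cell to blastocyst panel, where every point lies between 3.25 and 7.29.

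The TPM of Gata3 was assigned to different transcripts in oocyte and blastocyst. The gene (minus strand of chromosome 2, 9857078 to 9890034) had 3 merged transcripts that share their last exon. One has the 6 exons and all 5 introns of the annotated Gata3-201. The other two have 3 exons each, begin 12.9 kb (the upstream short form) and 15.0 kb (the downstream short form) after the start of the annotated form, and have first exons of their own. In the oocyte the upstream short form held 86.4% and 84.98% of Gata3 TPM and in the 1-cell embryo 76.5% and 95.0%, and the annotated form was at 0 and 1.10 TPM in the oocyte. In the blastocyst the upstream short form held 3.85% and 0.23%, the downstream short form 68.3% and 66.6%, and the annotated form 27.8% and 33.2%. The short forms share 90.3% (downstream) and 87.5% (upstream) of their bases with the annotated form, so this split rests on few bases. Neither short form was read in the long reads of the blastocyst, and its true share there was not tested. The annotated form was at 16.4 and 82.2 TPM in 8-cell embryos and at 218 and 639 TPM in blastocysts.

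Long reads show which forms were read at which stage. The oocyte pool held a Gata3 transcript of 2 exons and the 1-cell pool held both short forms, with no full-length form. The 8-cell pool held the 6-exon form, and the blastocyst pool a 4-exon part of it. In the fit over 20250 transcripts, the annotated form rose from 4-cell to 8-cell by 4.31 (SE 0.88, adjusted p = 0.0195) and the downstream short form by 5.55 (SE 1.11, adjusted p = 0.0164), while the upstream short form differed by 1.93 (SE 1.19, adjusted p = 0.481). From 8-cell to blastocyst none of the 3 passed, with 3.30 for both the annotated form (SE 0.88, adjusted p = 0.0837) and the downstream form (SE 1.11, adjusted p = 0.173), and 0.93 for the upstream form (SE 1.19, adjusted p = 0.888), which was at -0.33 without blastocyst replicate 1. From oocyte to blastocyst the annotated form alone, set in the gene's place, gave a change of 8.02 (adjusted p = 8.67e-06).

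A further merged transcript is listed on the plus strand over the same exons. Its 5 exons cover 1557 bases, of which 1554 (99.8%) are exonic in the annotated Gata3 form, 3 of its 4 introns have the same ends and all 4 match within 3 bases. By the strand rule it belongs to another gene, Gm13256. It reached 44.96 and 139 TPM in 8-cell embryos and 381 and 1753 TPM in blastocysts, which is 0.614, 0.624, 0.486 and 0.91 of Gata3, but only 0.011 and 0.0077 of Gata3 in the oocyte. The kit does not mark strand, so reads of both cannot be told apart. With this transcript added, Gata3 changed by 3.32 from 8-cell to blastocyst (adjusted p = 0.11) and by 5.38 from 4-cell to 8-cell (adjusted p = 0.0189), values computed after seeing the data.

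**Figure D3:**
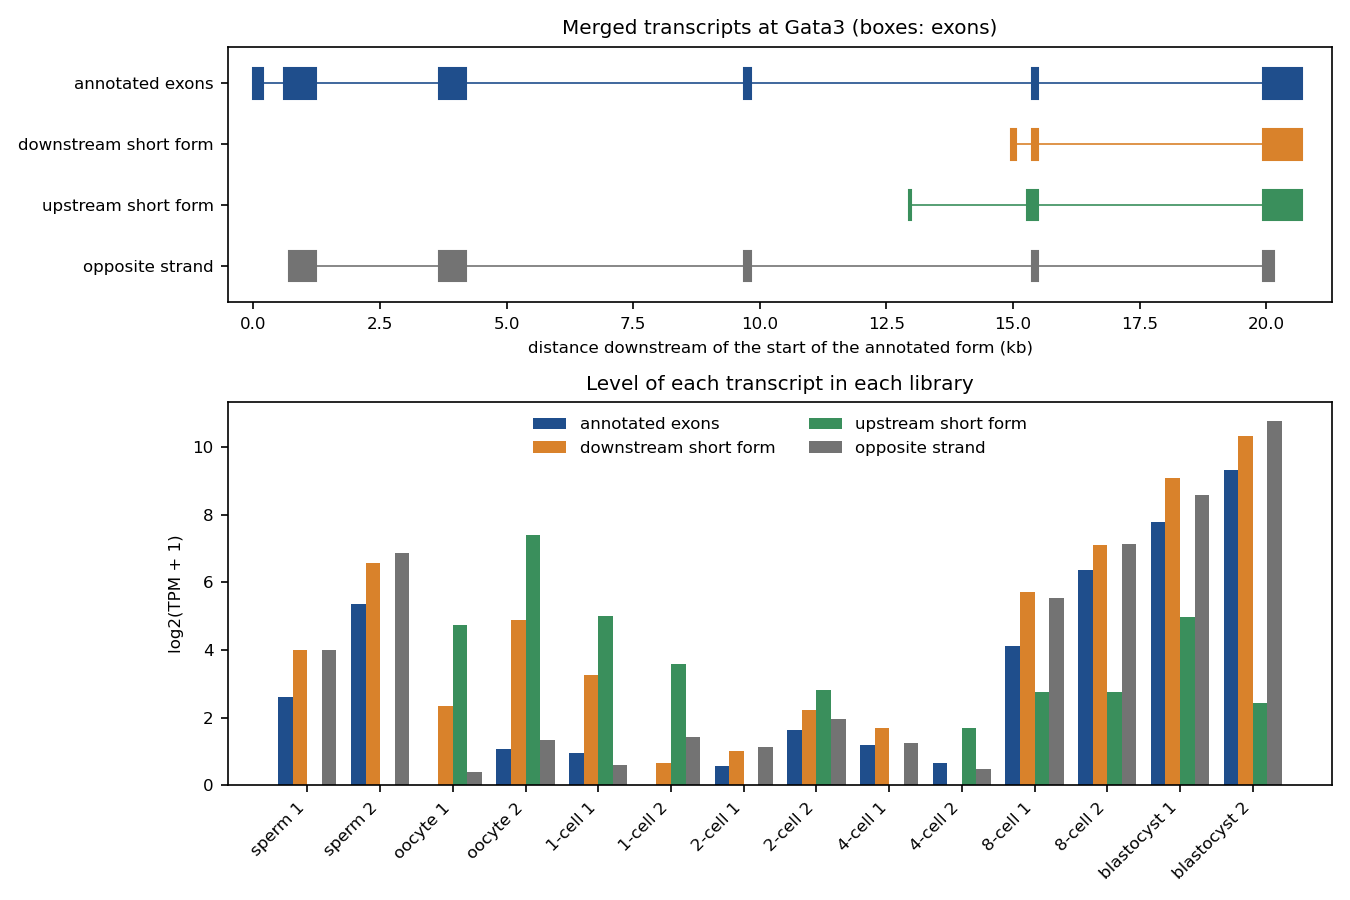
The upper panel draws the exons (boxes) of the 4 merged transcripts by distance in kb from the start of the annotated form, and the lower panel their log2(TPM + 1) in each of the 14 libraries. The upstream short form leads in the oocyte and 1-cell libraries, and the annotated, downstream and opposite-strand transcripts are all higher than it in the 8-cell and blastocyst libraries; the opposite-strand transcript ends at 1753 TPM.

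The blastocyst pool held 22 of the 43 long-read transcripts of the 8 genes, the 4-cell pool none, and 28 of the 43 had an annotated intron chain. A single long-read pool per stage gives no replicate check. Cdx2 was read only in the blastocyst, as the 3-exon Cdx2-201 (2179 bases), and its merged start lies 6 bases from the annotated one. Krt8 was read with all 9 exons in the sperm, 8-cell and blastocyst pools, and Krt18 with all 7 exons in the sperm, 2-cell, 8-cell and blastocyst pools. Id2 was read with its 3 exons in the sperm, 2-cell, 8-cell and blastocyst pools. Tspan8 appeared in the 8-cell pool as Tspan8-203 (9 exons), and the blastocyst pool held that form once and the 8-exon Tspan8-201 in 3 versions, which has no merged transcript of its own, so that the TPM of Tspan8 rests on 1 form.

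Dppa1 had the most forms, 8 long-read transcripts in the blastocyst pool and 6 merged ones. Of its TPM in the blastocyst, 67.1% and 84.0% were of Dppa1-202 (337 and 95.2 TPM), 15.7% and 10.8% of Dppa1-201 (78.9 and 12.2 TPM), and 15.2% and 3.80% of a form of 2 exons that starts with Dppa1-202. Dppa1-201 was at 0 TPM in all 12 other libraries. The 1-cell pool held 1 Dppa1 transcript, whose first exon lies 7981 bases from the nearest annotated start and which was at 0 to 1.07 TPM in the embryo libraries. At the transcript level 3 of the 15 tested transcripts, all of Dppa1, passed the filter through the blastocyst libraries alone. Their direction was thus fixed, though not a call, and the 8-exon form among them was not called (2.23, SE 0.58, adjusted p = 0.0727 in limma). Of the other 12, 7 were called higher from 8-cell to blastocyst, where 0.83% of all transcripts were. Over all 15 the count was 9, and it ranged from 1 (without 8-cell replicate 1) and 3 (without 8-cell replicate 2) to 12 (without either 2-cell library) when 1 library was left out, and was 0 in a fit of the 4 libraries of the step. Dppa1-202, which passed the filter without the blastocyst libraries, rose by 7.21 (SE 0.73, adjusted p = 0.00189). The minor forms of Krt8 (1.64, SE 0.44, adjusted p = 0.0859) and Id2 (1.68, SE 0.63, adjusted p = 0.239), both read in sperm, did not pass.

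The 8 genes fell into 2 sets by which blastocyst library was higher. Replicate 2 was higher than replicate 1 by 4.78 times for Krt7, 4.29 for Krt8, 3.52 for Krt18, 2.56 for Cdx2 and 2.46 for Gata3. Replicate 1 was higher than replicate 2 by 4.61 times for Tspan8, 4.44 for Dppa1 and 3.83 for Id2. In the 8-cell libraries the same 5 genes were higher in replicate 2, by 2.00 (Krt18) to 3.05 (Gata3) times, and the other 3 were higher in replicate 1, with 0.721 to 0.773 of that level in replicate 2. Replicates follow the titles here, and by the numbers of the files the 8-cell libraries would be swapped. Dppa1 was at only 0.619 and 0.461 TPM in the 8-cell libraries. The summed marker levels differed between the blastocyst libraries through a few genes. Those of the inner cell mass summed to 13075 TPM in replicate 1 and 5101 TPM in replicate 2, of which Dppa5a was 12292 and 4431 TPM, and the other 9 summed to 783 and 670 TPM, with 6 of them higher in replicate 1 and 3 in replicate 2. Those of the trophectoderm epithelium summed to 4017 and 8276 TPM, of which Cldn4 and Epcam were 2768 and 7091 TPM, and the other 14 summed to 1249 and 1184 TPM, with 10 of them higher in replicate 1 and 4 in replicate 2. In bulk lysates fewer cells of a type and less RNA per cell cannot be told apart.

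Base composition differed between the sets as well. The longest annotated transcripts of the first 5 genes had 49.7% (Gata3) to 57.5% (Cdx2) G and C, those of Tspan8, Dppa1 and Id2 41.6%, 42.5% and 45.2%. Over 8515 genes at a mean of 1 TPM or more in the blastocyst, the difference between its libraries (replicate 2 minus replicate 1, log2) had a median of 0.44 in the 25% of genes richest in GC and -1.09 in the 25% poorest, with a correlation across genes of 0.37, as a description, since genes are not independent replicates. In the 8-cell stage that correlation was 0.446. In bins of GC the median was below 0 up to 54.2% GC (-0.16) and above 0 from 55.3% (0.03). Genes of the GC of Gata3 and Krt7 had medians of -0.58 and -0.33, the other way from these genes (1.30 and 2.21). Tspan8, Dppa1, Id2, Krt8, Krt18 and Cdx2 lay on the same side of 0 as the median of genes of their GC. The parts of cell makeup and of base composition in the split were not tested. With GC deciles centred in each library, an alternative chosen after seeing the data, all 8 genes were called higher from 8-cell to blastocyst, Gata3 with an adjusted p of 0.0497, and 61.4% of all calls were higher, against 50.3% without the correction.

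**Figure D4:**
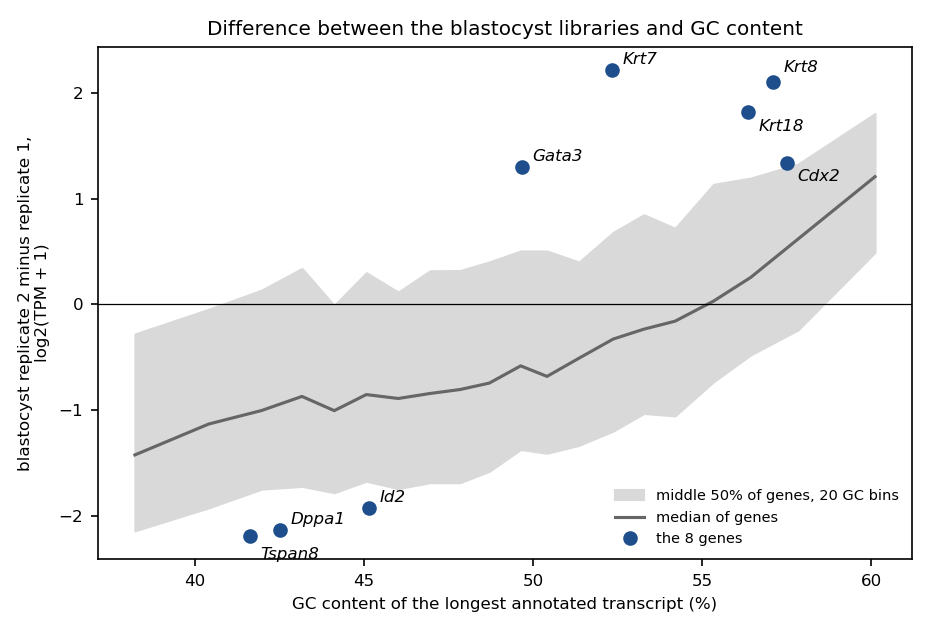
The horizontal axis is the GC content (%) of the longest annotated transcript of a gene and the vertical axis the log2 difference between the blastocyst libraries, replicate 2 minus replicate 1; the band and line give the middle 50% and the median of 8515 genes in 20 GC bins, and points the 8 genes. The median rises with GC, and the 8 points run from -2.19 (Tspan8) to 2.21 (Krt7). Gata3 and Krt7 lie above 0 where the median of their GC bin is below it, at -0.58 and -0.33. The other points lie on the same side of 0 as the median of their bin.

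Sperm libraries held several of these genes. Krt18 was at 101 and 306 TPM, Krt8 at 48.4 and 288 TPM, Krt7 at 64.0 and 28.8 TPM, Id2 at 63.4 and 21.4 TPM and Gata3 at 20.2 and 134 TPM. Dppa1 (0 and 0.229 TPM) and Tspan8 (2.90 and 1.28 TPM) were low. Only for Krt7 did a sperm library overlap with the blastocyst. All 7 measured epididymal epithelium markers were at 1 TPM or more in both sperm libraries, and summed to 2967 and 490 TPM, and all 7 leukocyte markers were, summing to 10565 and 2085 TPM. In the 12 other libraries these sums were 0.0567 to 2.99 and 3.49 to 36.3 TPM. Krt7 and Id2 were higher in the library with the higher sums and Krt8, Krt18 and Gata3 in the other, and the part of other cells in these values was not tested. Sperm entered no stage test except the alternative fit over all 14 libraries, where it added to the shared spread.

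Of 34 tested genes of the same pathways, in the 3 lists that follow, 5 were called from 8-cell to blastocyst, 4 higher and 1 lower, where 3% of all genes were called in either direction. Among 18 other trophectoderm regulators, 14 were tested. From 4-cell to 8-cell Elf3, an epithelial ETS factor, was called higher (3.45, SE 0.68, adjusted p = 0.0208), a call lost without either 4-cell or either 8-cell library (adjusted p = 0.107 to 0.404). From 8-cell to blastocyst none was called higher and Hand1, a factor of later trophoblast, was called lower, from 36.3 and 52.7 to 0.725 and 0.738 TPM (-4.69, SE 0.80, adjusted p = 0.00617). Tead4, Yap1, Wwtr1 and Tfap2c, which act ahead of or beside Cdx2, were at 3.35 to 167 TPM in the 8-cell and blastocyst libraries, and none of the 4 passed in that step. The median change of the 14 was 0.06, against -0.14 over all genes.

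Of 22 keratin partners and desmosome genes only 4 had a merged transcript. The desmosomal cadherin Dsg2 was called higher, from 2.03 and 1.45 to 27.6 and 8.09 TPM (2.56, SE 0.54, adjusted p = 0.0182), and the median of the 4 was 2.22. Of 16 tested genes of the trophectoderm epithelium 3 were called higher in that step (median 1.38). The tight junction gene Cldn4 went from 51.8 and 142 to 1626 and 4050 TPM (4.88, SE 0.89, adjusted p = 0.0093) and the adhesion gene Epcam from 83.3 and 183 to 1141 and 3041 TPM (3.90, SE 0.86, adjusted p = 0.0229). From 4-cell to 8-cell 2 of the 16 were called higher, where 0.77% of all genes were. The call of Cldn4 was lost without 8-cell replicate 1 or blastocyst replicate 2, that of Epcam without either 8-cell library or blastocyst replicate 2, that of Dsg2 without either 8-cell library or blastocyst replicate 1, and that of Hand1 without either 8-cell library.

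Of 24 tested relatives of the members 3 were called in this step, 2 higher and 1 lower, where 3% of all genes were called in either direction. Of 11 Id and E protein genes 2 had a merged transcript: Id1 (3.49 and 8.37 to 0.141 and 2.87 TPM) and Id3 (404 and 455 to 50.3 and 183 TPM), both with lower blastocyst libraries but no call. Of 6 tested Gata factors and cofactors Gata1 was called lower, from 15.9 and 21.0 to 4.46 and 0.814 TPM (-2.61, SE 0.66, adjusted p = 0.0477), a call lost under leaving out 9 of the 12 libraries. None of the 4 other Dppa genes was called (median -1.33). Of 12 tested tetraspanins 2 were called higher, Cd81 (3.56, SE 0.74, adjusted p = 0.0172) and Cd82 (2.47, SE 0.48, adjusted p = 0.0123), and both calls were lost without either 8-cell library, that of Cd81 also without blastocyst replicate 2. Of the markers of other cells, none of 10 inner cell mass genes was called in this step (median 0.38), while 2 of 6 primitive endoderm genes were called higher, Sox17 (4.54, SE 0.69, adjusted p = 0.00327) and Lama1 (3.98, SE 0.65, adjusted p = 0.00476), both lost without 8-cell replicate 1. Of 9 oocyte markers none, of 8 markers of the 2-cell stage 1 (Tdpoz4, lower, a call lost on leaving out 10 of the 12 libraries), of 6 sperm markers none and of 5 leukocyte markers 1 (Laptm5, higher, lost for 6 of the 12) were called, and 1 epididymal marker was tested and not called.

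The genes nearest to each member in pattern, by Pearson's r of log2(TPM + 1) over the 12 libraries and leaving the members out, are given as a description, since the points share libraries and stages. They were Tmem125, Lad1 and Hspb2 for Cdx2 (r = 0.992 to 0.994), Tmem125, Tinagl1 and Lad1 for Krt8 (0.978 to 0.981), Pros1, Mtfp1 and St14 for Krt18 (0.983 to 0.988) and, among others, Hoxd3os1 and Tdg for Krt7 (0.978 and 0.976). For Tspan8 they were Msn, Acss1 and Retsat (0.976 to 0.991), for Id2, among others, Myo1a and Dsp (0.969 and 0.965), and for Dppa1 Slc15a2, Cd3g and Adh1 (0.973 to 0.974). Gata3 had the fewest near genes. Its nearest were Tmem9 (0.963), Pou5f1 (0.935) and Ackr3 (0.933), and 8 genes reached 0.9 with it, against 45 (Dppa1) to 226 (Krt18) for the other 7. Among the members, Krt8 and Krt18 were nearest (0.983), and Gata3 and Id2 least alike (0.553).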

How the data were processed

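The short-read data were 14 libraries (2 for each of 7 stages) and the long-read data 7 pools. Per the labels and methods, the authors amplified cDNA by Smart-seq2, which does not mark strand, built transcripts from long reads on mm10, merged the stages and quantified the short reads with salmon. They deposited TPM over the merged transcripts and over those of each library's own stage, and exon coordinates. TPM keeps no depth, so no count test was run.

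Gene TPM was summed over 18333 of 22612 transcripts, those that overlap an annotated gene. Stages were compared with limma 3.58.1 (trended eBayes) in R 4.3.3 on log2(TPM + 1), with stage as the only term, 12 libraries and Benjamini-Hochberg adjustment. Fold changes understate low genes. The libraries of a stage are batches of pooled embryos, and p values measure only the spread between them. Replicates follow the titles, and the 8-cell files are numbered the other way round.

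The members and gene lists were chosen with earlier results of these data known. Named are all members, the 3 genes nearest to each (2 of these are not reported here), and from each list up to 2 rises and 2 falls called from 8-cell to blastocyst. Elf3, Tead4, Yap1, Wwtr1, Tfap2c, Dppa5a, Id1 and Id3 were chosen after their values were seen. Alternatives were another pseudocount, filters and gene assignment, quantile normalization, other sets of libraries, a replicate block, a weighted spread and each library left out, and, added after seeing the data, a GC correction and 2 other sums for Gata3.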

Additional observations from a re-analysis of the deposited data

How the results depend on the processing

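With 2 libraries per stage, the number of calls depended on how the spread was pooled. Counts are of all genes unless members are named, and reference values are 38 (oocyte to 1-cell), 3226 (1-cell to 2-cell, 1 member), 324 (2-cell to 4-cell), 167 (4-cell to 8-cell, 2 members), 300 (8-cell to blastocyst, 7 members) and 5338 genes (oocyte to blastocyst, 8 members). Fitting the 4 libraries of a step alone gave 0, 1079 (0 members), 0, 3168 (5 members) and 0 genes (0 members) in the first 5 steps. Weighting the spread by stage gave 86, 1531 (0 members), 1, 3920 (6 members) and 555 genes. The GC correction gave 3436 genes and 3 members (1 higher, 2 lower) from 1-cell to 2-cell. It gave 1053 genes and 1 member (lower) from 2-cell to 4-cell, and 379 genes and 4 members (all higher) from 4-cell to 8-cell. From 8-cell to blastocyst it gave 601 genes and moved the median of all genes from -0.14 to 0.10. Quantile normalization gave 17 genes from oocyte to 1-cell, 2 members from 1-cell to 2-cell, 1075 genes from 2-cell to 4-cell, and 259 genes in the step after that. A pseudocount of 0.1 gave 23 genes in the first step and 85 from 2-cell to 4-cell, stricter gene assignment 23 in the first step, and no filter gave 0 genes in the first step, with 0 members in the 1-cell to 2-cell and 4-cell to 8-cell steps. All 14 libraries gave 188 genes from 2-cell to 4-cell and 1 member from 4-cell to 8-cell. The cause was not tested.

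A replicate block gave 1 gene from oocyte to 1-cell, 0 members from 1-cell to 2-cell, 87 genes from 2-cell to 4-cell, and 89 genes and 1 member (Gata3, without Krt8) from 4-cell to 8-cell, and 7 members from 8-cell to blastocyst. Deviations of libraries with the same number had correlations of -0.33 (1-cell to 2-cell) to 0.48 (8-cell to blastocyst). Such correlations cannot decide whether the numbers pair the libraries, and the 8-cell numbers differ between titles and files.

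Leaving out 1 library, after which a lone library is assumed to vary like the other stages, gave 0 to 215 genes (oocyte to 1-cell), 1679 to 3814 (1-cell to 2-cell, 0 to 3 members), 0 to 1704 (2-cell to 4-cell, 0 to 1 members), 0 to 882 (4-cell to 8-cell, 0 to 4 members), 24 to 798 (8-cell to blastocyst, 1 to 8 members) and 4318 to 6196 (oocyte to blastocyst, 7 to 8 members). From 8-cell to blastocyst the changes kept their direction for all 8 genes, and for the transcripts except the upstream short form of Gata3, which gave -0.33 without blastocyst replicate 1 and 2.19 without blastocyst replicate 2.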
